A study of Mus musculus with 2 samples.

Results

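The 4 JAK kinase genes Jak1, Jak2, Jak3 and Tyk2 and the 5 STAT transcription factor genes Stat3, Stat4, Stat5a, Stat5b and Stat6 were examined for chromatin binding of HLF in mouse blood progenitors. They were taken as 9 named genes of the 21900 protein-coding genes in the annotation. A FLAG-HLF peak was counted for a gene when its centre lay inside the gene's bounds or within 100 kb of either end. By this rule 9 of the 3153 peaks in the deposited list were counted, at 7 of the 9 genes. Jak2, Tyk2 and Stat3 each held 1 peak inside the gene, Jak3, Stat5a, Stat5b and Stat6 had peaks only outside, and Jak1 and Stat4 had 0 peaks.

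HLF (hepatic leukemia factor) is a PAR bZIP transcription factor. Wild-type LSK cells, which are lineage-negative, Sca-1-positive and c-Kit-positive stem and progenitor cells, received a pMX retrovirus carrying 3xFLAG-tagged Hlf with GFP (FLAG-HLF) or GFP alone (GFP-ctrl). Both arms started from 80000 cells, were kept for 5 days in OP9 medium with SCF at 50 ng/ml, IL-7 at 10 ng/ml, Flt3 ligand at 10 ng/ml and IL-3 at 5 ng/ml, and were precipitated with an anti-FLAG antibody. There was 1 library per arm and only the FLAG-HLF peak list was analysed, so no value has a replicate spread and the arms were not compared. The tagged protein came from a virus, and endogenous HLF was not the target of the antibody. The list gives positions only, each 400 bases wide, without read counts, height or significance, so depth is unknown, and it carries no marker of cell type.

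JAK kinases are tyrosine kinases held on the inner tails of cytokine receptors. When a cytokine joins the receptor chains, the kinases activate each other and phosphorylate the receptor and the STAT proteins, which pair, enter the nucleus and bind DNA. Blood progenitors depend on this route for survival and growth signals. IL-3 acts mainly through JAK2, and IL-7 through JAK1 and JAK3, and both lead to STAT5.

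Peaks near these genes were common, but each of the 9 peaks had 5 to 11 coding genes within 100 kb, against a median of 3 over the whole list. The 9 were picked for lying within 100 kb of a coding gene, which the whole list was not, so these counts are not alike. Of the 9, 5 are from 1 stretch of chromosome 11. A peak inside or within 100 kb was found for 7 of the 9 genes (77.8%), against 36.3% of all coding genes. A peak inside the gene was found for 3 of the 9 (33.3%), against 6.82% of all coding genes. Counting each peak only for the coding gene with the nearest end, 3 of the 9 genes had a peak, against 10.8% of all coding genes. The 3 were again Jak2, Tyk2 and Stat3. The median distance from the gene to the nearest peak centre was 21.7 kb for the 9 genes and 185.9 kb for all coding genes. The 9 genes were longer than most, with a median length of 52.8 kb against 17.2 kb, and their windows held 1 to 11 other coding genes. The part that length and gene density have in these counts was not tested.

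**Figure D1:**
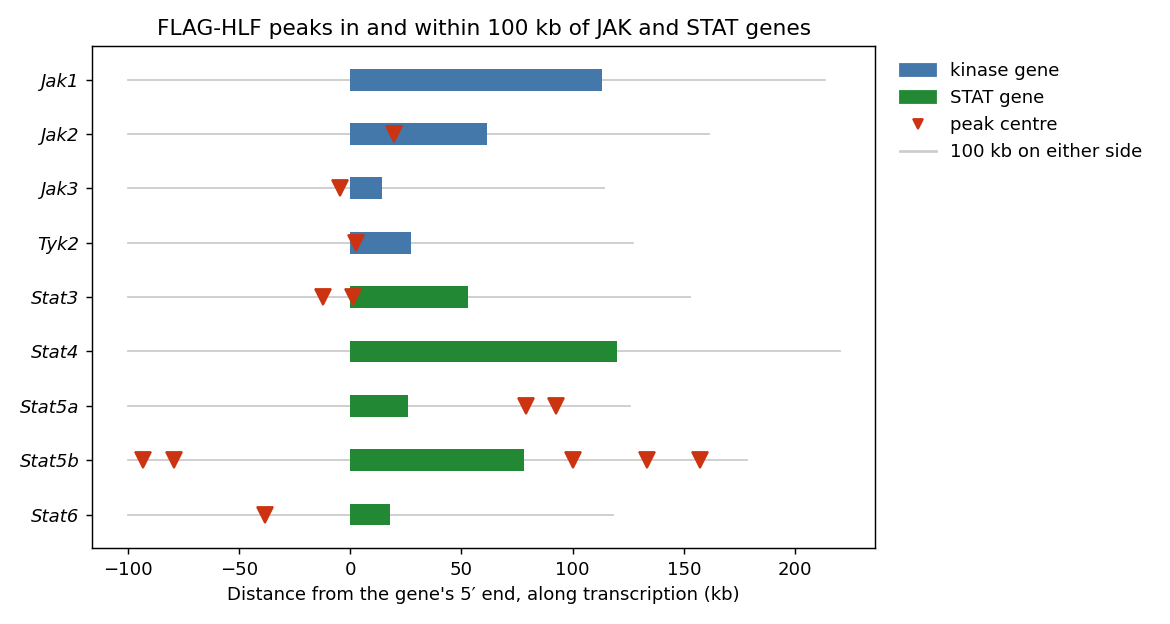
FLAG-HLF peak centres (red triangles) in and within 100 kb of each gene, plotted as distance in kb from the gene's 5′ end along the direction of transcription; bars are the genes, blue for kinases and green for STAT factors, and grey lines the 100 kb searched on either side. Jak2, Tyk2 and Stat3 hold a peak, Stat5b has 5 peaks that all lie outside it, and Jak1 and Stat4 have none.

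Among the kinases, Tyk2 had the peak closest to its start inside the gene. Tyk2 serves the type I interferon and IL-12 receptors and lies at chr9:21104068-21131393 (GRCm38, gene ID 54721, minus strand). Its peak, chr9:21128798-21129197, was centred 2.28 kb downstream of the listed transcription start, and the nearest other peak was 481 kb away. This was the most isolated of the 9 peaks. A peak as near to a listed start was found for 2.76% of the 17274 coding genes whose start is listed. The neighbours Raver1, an RNA-binding protein gene, and Cdc37, which encodes a kinase co-chaperone, held 0 peaks. Exons and introns were not told apart at any gene, because the annotation gives gene bounds only.

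Jak2 held 1 peak deeper in the gene. Jak2 is the kinase of the IL-3, erythropoietin and thrombopoietin receptors, at chr19:29251803-29313095 (gene ID 16452, plus strand). The peak, chr19:29271095-29271494, was centred 19.5 kb downstream of the listed start and 41.8 kb from the other end. It was 148.8 kb from the next peak, which lay inside Pdcd1lg2, the gene of the PD-L2 ligand, and 107 kb from Jak2, just past the limit. The neighbours Rcl1 and Insl6 held no peak.

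Jak3 had a peak near its start that lay in another gene. Jak3 works with the common gamma chain of the IL-7 and IL-2 receptors and is at chr8:71676383-71690577 (gene ID 16453, plus strand). The peak, chr8:71671531-71671930, was centred 4.65 kb upstream of the Jak3 start, but it was 0.027 kb from the listed start of Unc13a, which encodes a protein that primes synaptic vesicles in neurons. Unc13a and Jak3 point away from each other, with 4.61 kb between their bounds. No peak lay inside Jak3, Insl3, which overlaps it, or B3gnt3, which follows it. The part of this peak that a RefSeq promoter window (GRCm38.p6) covers is shown because it is the only sequence at hand for the kinase genes' peaks. It is chr8:71671708-71671930 on the plus strand, 223 of the 400 bases, and it holds the peak centre.

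Unc13a start, upstream of Jak3: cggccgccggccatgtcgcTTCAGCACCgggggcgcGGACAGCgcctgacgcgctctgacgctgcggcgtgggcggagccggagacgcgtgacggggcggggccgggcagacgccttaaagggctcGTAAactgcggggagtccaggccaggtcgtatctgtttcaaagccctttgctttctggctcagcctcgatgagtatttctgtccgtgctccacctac

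Capitals mark GTAA, the reverse complement of TTAC, which is one arm of the PAR bZIP site, and TTCAGCACC and GGACAGC, which resemble the left and right parts of RE1, the element bound by the neuronal gene repressor REST. The pair of RE1 parts was looked for only after the sequence had been read. TTCAGCACC starts 3 bases below the peak centre, and 8 bases lie between it and GGACAGC. Both parts occurred together, on either strand and at any spacing, in 0.0426% of all 32851 promoter windows of 300 bases and in 1.76% of the 227 windows that overlap a peak. The last share rests on 4 windows, and the Unc13a window that prompted the search is one of them. The single GTAA lies 104 bases above the centre. TTAC or GTAA is part of the PAR bZIP palindrome TTACGTAA, its variant TTACATAA and the C/EBP-like TTGCGTAA, and no match to these 3 was found in this stretch. A match to letters is a description, not a binding site, and the uncovered rest of the peak was not read.

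Jak1, the kinase shared by most cytokine receptor families, had no peak near it. It lies at chr4:101151974-101265282 (gene ID 16451, minus strand) and its nearest peak was 310.1 kb away. Of all coding genes, 62.2% had a nearer or equally near peak. Jak1 is 113.3 kb long, and 22.5% of the 2429 coding genes of 100 kb or longer held a peak. Raver2, which overlaps its lower end, and the neighbours Cachd1 and Ak4 also held none and had none within 100 kb. Without read counts, weaker binding below the authors' threshold cannot be seen.

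Among the STAT factors, Stat3 had the peak nearest to a transcription start of all 9 genes. Stat3 carries signals of the IL-6 family and of G-CSF and lies at chr11:100886806-100939594 (gene ID 20848, minus strand). The peak chr11:100938180-100938579 was centred 1.16 kb downstream of the listed start, a distance matched or bettered by 1.89% of coding genes with a listed start. The centre was also 0.041 kb from the listed start of Gm46295, a long noncoding RNA gene that begins inside Stat3 on the opposite strand. Another peak, chr11:100951827-100952226, lay 12.5 kb upstream of the Stat3 start and 13.7 kb from the first. It was in no annotated gene, and the nearest coding gene end was that of Cavin1, a caveola gene, at 4.71 kb. The Gm46295 window covers 208 bases of the peak inside Stat3, chr11:100938180-100938387, plus strand, centre included, and is shown because this is the closest peak to the start of any of the 9 genes.

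Peak inside Stat3, first 208 bases: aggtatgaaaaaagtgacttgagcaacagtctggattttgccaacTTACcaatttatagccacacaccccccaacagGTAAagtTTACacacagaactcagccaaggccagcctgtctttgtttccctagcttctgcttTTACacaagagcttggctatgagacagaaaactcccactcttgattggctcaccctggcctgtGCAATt

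Capitals mark TTAC and its reverse complement GTAA, and GCAAT, one arm of the site of the C/EBP factors, which are bZIP proteins too. The stretch has 4 matches to TTAC on either strand, or 1.92 per 100 bases, against a mean of 0.434 per 100 bases over all promoter windows and 0.448 in the Unc13a stretch. It is poorer in G and C than the Unc13a stretch, at 45.7% against 66.8%, and the part of base composition in the TTAC count was not tested. GTAA and the next TTAC start 122 and 115 bases below the peak centre, and the other matches start 154 and 60 bases below it. GCAAT, which was searched for only after the sequence had been read, starts 3 bases above the centre, and 26.4% of all promoter windows hold it on either strand. The 8-base sites TTACGTAA, TTACATAA and TTGCGTAA, the STAT site TTCNNNGAA and the CRE core TGACGTCA were not found in these 208 bases.

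Stat5a and Stat5b, the paralogous STATs of IL-3, IL-7 and many other cytokines, held no peak. They sit head to head on chromosome 11 with 0.347 kb between their bounds, and Stat3 follows 1.64 kb beyond Stat5a. Stat5b lies at chr11:100780731-100859004 (gene ID 20851, minus strand) and Stat5a at chr11:100859351-100885169 (gene ID 20850, plus strand). Stat5b had the most peaks of the 9 genes within 100 kb, at 5, yet the nearest was 21.7 kb from it and every one was nearer to an end of another coding gene. Stat5a had 2, both also counted for Stat3, at 53.2 and 66.9 kb. Those same peaks counted for Stat5b at 79.4 and 93.02 kb, so the chromosome 11 genes share their peaks and are not separate observations.

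The other 3 Stat5b peaks lay inside 3 genes beyond its 3′ end. The nearest, chr11:100758832-100759231, was in Kcnh4, a potassium channel gene, 0.747 kb from its listed start, and 21.7 kb from Stat5b. The second, chr11:100725438-100725837, was in Rab5c, which encodes a small GTPase of early endosomes, at 55.1 kb. The third, chr11:100701365-100701764, was in Dhx58, which encodes LGP2, a helicase of the RIG-I family, at 79.2 kb. Between Stat5b and the third peak were 7 coding genes counting Dhx58, among them Kat2a, an acetyltransferase gene, and Ghdc, next to Stat5b. The peak in Kcnh4 was 100.3 kb from Stat5a and was not counted for it. The peak upstream of Stat3 was 93.02 kb from Stat5b and was counted for Stat5b. These are the values on either side of the limit.

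**Figure D2:**
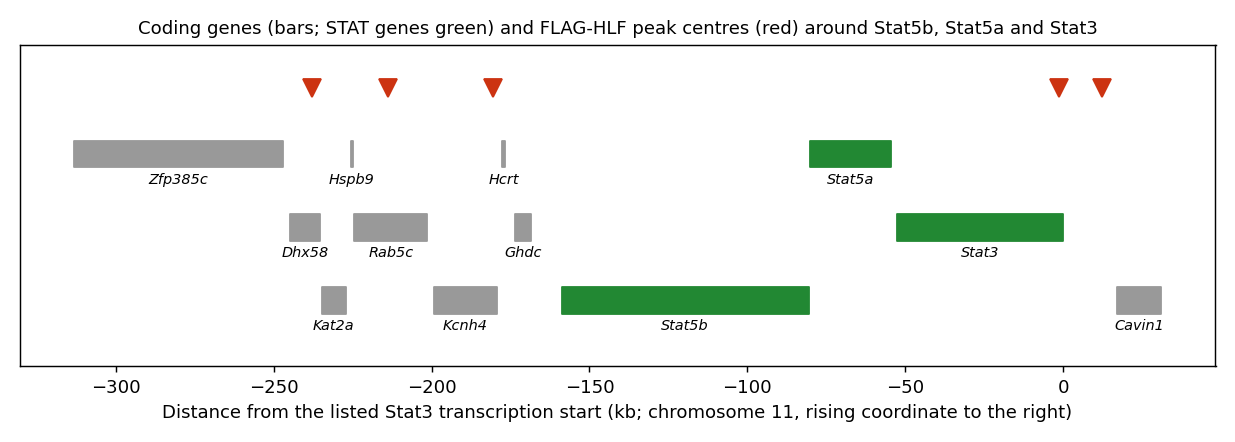
Chromosome 11 around Stat5b, Stat5a and Stat3, plotted as distance in kb from the listed Stat3 start, with coding genes as bars (STAT genes green, others grey, rows only for legibility) and the 5 peak centres as red triangles. The 3 peaks on the left fall in Dhx58, Rab5c and Kcnh4, and the 2 on the right flank the Stat3 start, with none over Stat5b or Stat5a.

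The 5 chromosome 11 peaks spanned 250.5 kb. Gaps between neighbours were 24.1, 33.4, 179.3 and 13.7 kb, against a median gap of 267.9 kb between neighbouring peaks over the whole list. The 5 were picked for lying near the adjacent genes Stat5b, Stat5a and Stat3, so gaps below that median are partly set by the choice. Of 3073 possible runs of 5 peaks in the list, 72 were as tight, these 5 included, and 7.29% of all peaks belonged to one. The span touched 10 coding genes.

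Stat6, the STAT of IL-4 and IL-13, had 1 peak that lay in its neighbour. Stat6 lies at chr10:127642955-127660987 (gene ID 20852, plus strand). The peak, chr10:127604424-127604823, was 38.4 kb upstream of the listed Stat6 start, inside Lrp1, the gene of a large endocytic receptor, and inside the noncoding gene Gm51820. It was 16.5 kb from the nearer end of Lrp1. Nab2, which overlaps the end of Stat6, and Nemp1 beyond it held no peak.

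Stat4, the STAT of IL-12, had no peak within 100 kb. It lies at chr1:51987106-52107189 (gene ID 20849, plus strand), and its nearest peak was 191.5 kb away. Of all coding genes, 50.7% had a peak as near. Stat4 is 120.1 kb long and, like Jak1, held none.

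**Figure D3:**
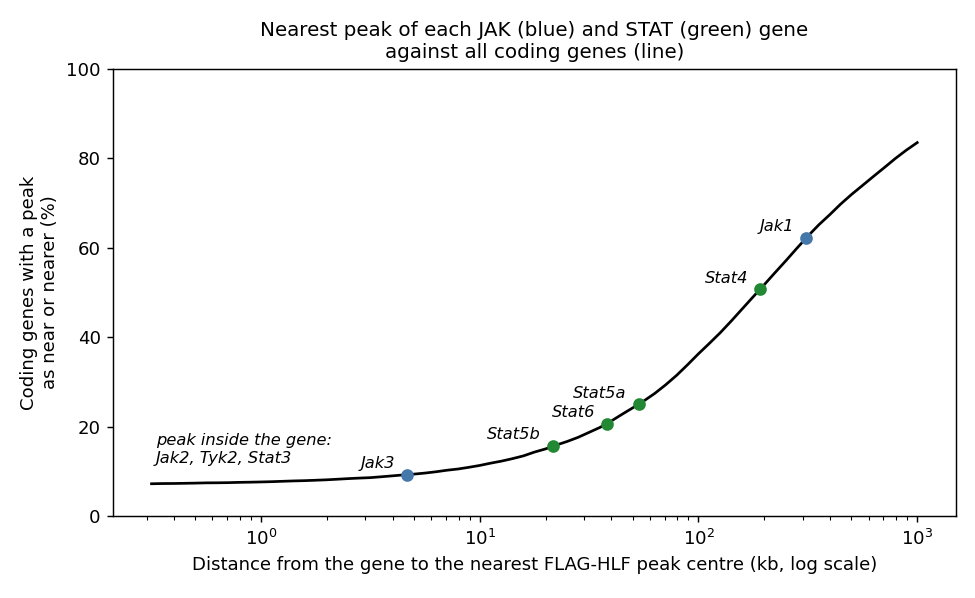
Share of all coding genes (line, in percent) whose nearest FLAG-HLF peak centre is as near as the distance on the x axis (kb from the gene's bounds, log scale), with the kinases (blue) and STAT factors (green) placed at their own nearest peak. Jak3 sits at 4.65 kb, Stat5b, Stat6 and Stat5a between 21.7 and 53.2 kb, and Stat4 and Jak1 at 191.5 and 310.1 kb; the 3 genes with a peak inside are written at the left.

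Ordered by distance from a listed start, the nearest peaks were at 1.16 kb for Stat3, 2.28 kb for Tyk2, 4.65 kb for Jak3 and 19.5 kb for Jak2. Stat6 followed at 38.4 kb, Stat5b at 63.5 kb, Stat5a at 77.9 kb, Stat4 at 290.4 kb and Jak1 at 310.1 kb. Within 5 kb of a listed start, 3 of the 9 genes had a peak, against 4.1% of the coding genes with a listed start. For Jak3, that peak is the one at the Unc13a start. No peak overlapped any of the 12 promoter windows of the 9 genes, and 0.691% of all windows overlapped one, so this count is no result about the 9 genes. Of these windows, 9 held TTAC on either strand, as did 66.4% of all windows, and 0 held TTACGTAA, TTACATAA, TTGCGTAA or the STAT site TTCNNNGAA. These sites were in 0.119%, 0.938%, 0.167% and 8.3% of all windows. The CRE core TGACGTCA was in the window of Jak1, the gene farthest from a peak, and in 1.79% of all windows.

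The other genes of the route were counted in lists chosen with earlier results of these data known. Their shares with a peak inside were near or below that of all coding genes, and their shares nearest to a peak or within 100 kb were above it, apart from Stat2. Stat2, a STAT of the interferon response, had 0 peaks within 100 kb, and its nearest was 206.5 kb away. Of 38 receptor chains that signal through JAKs, 2 held a peak (5.26%), 9 were the nearest gene to one (23.7%) and 19 had one within 100 kb (50%). Some of these genes lie side by side and share a peak, as the interferon receptor genes Ifnar1 and Ifngr2 do, so the 19 are not separate observations. The all-gene values are the 6.82%, 10.8% and 36.3% given above. Il4ra, the IL-4 receptor chain upstream of STAT6, held a peak 0.378 kb from an end. Il9r, the IL-9 receptor chain, held a peak 8.78 kb from an end. Ifngr1, an interferon gamma receptor chain, had a peak 0.429 kb outside, and Csf2rb2, the mouse IL-3-specific beta chain, had a peak 3.96 kb outside.

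Of 5 receptor chains for the JAK-dependent cytokines in the medium, 2 had a peak within 100 kb (40%, against 36.3% of all coding genes). The peak near Csf2rb2 was 47.3 kb from Csf2rb, the common beta chain, so both genes count the same peak. Il3ra, the IL-3 receptor alpha chain, was 257.8 kb from its nearest peak, Il2rg, the common gamma chain, 501.3 kb and Il7r, the IL-7 receptor chain, 879 kb, against a median of 185.9 kb over all coding genes. These genes were picked for the culture medium, outside the rule for named genes.

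Of 18 negative regulators, 1 held a peak (5.56%), 5 were the nearest gene to one (27.8%) and 11 had one within 100 kb (61.1%). The all-gene values are 6.82%, 10.8% and 36.3%, here and for the STAT target genes below. The negative regulator with a peak inside was Ptprc, which encodes the phosphatase CD45, with 4 peaks inside or within 100 kb. The 8 SOCS family genes on this list are named here after their values were seen. Of them, 4 had a peak within 100 kb (50%, against 36.3% of all coding genes) and 0 held one, against 6.82%. The nearest peaks were at 19.5 kb for Socs3, 32.5 kb for Cish, 78.5 kb for Socs4, 81.6 kb for Socs2 and 107 kb for Socs1, and 207.2 kb or more for Socs5, Socs7 and Socs6. Of 13 known STAT target genes, 0 held a peak, 3 were the nearest gene to one (23.1%) and 7 had one within 100 kb (53.8%). These targets are short, with a median length of 6.24 kb against 17.15 kb for all coding genes. The receptor chains and negative regulators are longer, with medians of 25.35 and 29.78 kb. The part of length in these shares was not tested.

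**Figure D4:**
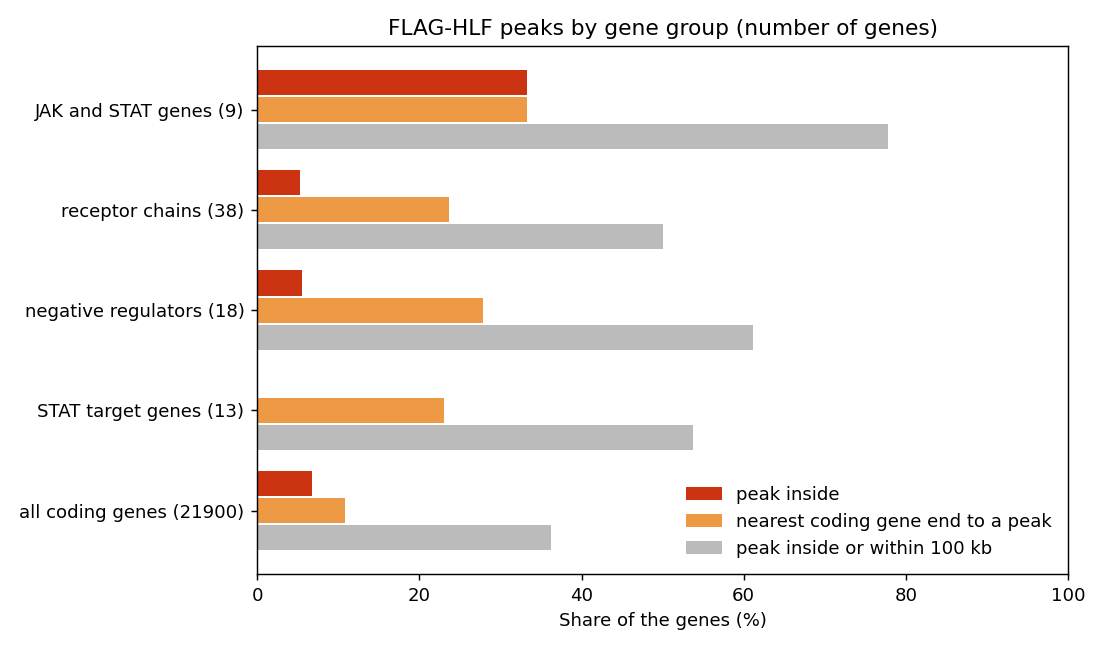
Share of genes, in percent, with a FLAG-HLF peak inside (red), with the nearest coding gene end to a peak (orange) and with a peak inside or within 100 kb (grey), for the JAK and STAT genes, the lists of their route and all coding genes (number of genes in brackets). The JAK and STAT genes reach 33.3%, 33.3% and 77.8%, against 6.82%, 10.8% and 36.3% of all coding genes; there are no replicates and no error bars.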

How the data were processed

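ChIP-seq with an anti-FLAG antibody covered 1 FLAG-HLF and 1 GFP-ctrl library. Per the labels' protocols, chromatin was crosslinked with 1% formaldehyde and sonicated in 4 cycles. Per the submitters' processing notes, the tools were MACS2, Bowtie2 and bedtools and the genome mm10 (GRCm38), with no role or version stated. The threshold for peaks, the use of the control and the step that gave every peak 400 bases are, in the sources used here, not given. The deposited file has 3 columns, the chromosome, start and end of each peak, and no values.

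Peak centres are the deposited start plus 200. Gene bounds were read from RefSeq's GRCm38.p6 table, in which all 9 genes were found by symbol. Strand and transcription starts came from RefSeq promoter windows (250 bases before to 50 after each start), which list 17274 coding genes, the 9 included. Genome sequence was not used here, so only peak stretches inside such windows were read. Motifs were searched on both strands. Counts are given beside those over all 21900 coding genes, with no test. The counting was tested on simulated data. The genes, lists and motifs were chosen with earlier results of these data known. Named genes are the 9, the genes next to them or holding their peaks, and up to 6 per list with a peak inside or within 5 kb; a few that the rule takes are not reported here. Alternatives changed the distance limit, the part of the peak used, the assignment and the lines used. Python 3.11.15, numpy 2.4.6, pandas 2.3.3 and matplotlib 3.10.9 were used.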

Additional observations from a re-analysis of the deposited data

How the results depend on the processing

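With a limit of 10 kb, 4 of the 9 genes had a peak (11.4% of all coding genes) and 4 distinct peaks were counted. At 50 kb the values were 6 genes (24.2% of all coding genes) and 7 peaks, and at 200 kb 8 genes (51.7%) and 15 peaks. In the first 1576 lines of the file, whose order is not explained, 4 genes had a peak (22% of all coding genes) from 4 peaks, and of the 3 peaks inside a gene the one in Tyk2 was among them. A stricter peak threshold could not be set because the list has no score. Counting each peak for the nearest of the 9 genes alone left 6 with a peak, as Stat5a had no peak of its own. Using any base of the peak in place of its centre changed none of the 3 counts it was run on. With noncoding genes in the assignment, 2 genes were nearest to a peak (7.26% of all coding genes), and with the holding gene first 3 were (11.1%). The peak inside Stat3 was 0.041 kb from the listed start of the noncoding Gm46295 and 1.215 kb from the nearer end of Stat3. The 3 peaks inside a gene rest on 1 library, and the peaks behind Jak3, Stat6, Stat5a and Stat5b lie in or nearer to other genes.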

Other observations

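The 227 promoter windows that overlap any peak in the list hold the letters searched for at these shares. TTACATAA, a PAR bZIP site, was in 6.17% of them and in 0.938% of all 32851 windows. TTGCGTAA, a site between those of C/EBP and PAR bZIP factors, was in 4.85% against 0.167%. The palindrome TTACGTAA was in 1 of the 227 windows (0.441%), against 0.119%. The STAT site TTCNNNGAA was in 6.61% of them, against 8.3% of all windows, and the short arm TTAC in 70.5%, against 66.4%. These shares are descriptions with no test.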
